A study of Rattus norvegicus with 20 samples.

Results

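The promoters of 6 genes that recruit or hold leukocytes were examined for binding of the NF-κB subunit p65 in regenerating rat liver. The 4 chemokine genes were Cxcl1, Ccl2, Ccl5 and Ccl20, and the 2 endothelial adhesion molecule genes were Vcam1 and Sele. They were taken by gene name from the authors' peak lists, which held 64 rows for them, and from the 297 probes within 5 kb of their listed starts. They are 6 of 14540 promoters that could be measured. Chromatin immunoprecipitation with an antibody against p65 was read on promoter tiling arrays (ChIP-chip), with 1 array for each of 20 liver samples of wild-type male Sprague Dawley rats. The animals were 8 to 10 weeks old and weighed 275 to 300 g, per the labels. For 5 weeks they drank a diet with 36% of calories from ethanol, or a calorie-matched pair-fed diet with carbohydrate in place of ethanol. All of them underwent a partial hepatectomy that removed 70% of the liver. The 0h samples are the left lateral and median lobes taken at surgery, and the 1h and 6h samples are remnant lobes, so that time after 0h and lobe cannot be told apart. The groups were ethanol and carbohydrate at 0h, with 3 arrays each, ethanol and carbohydrate at 1h, with 3 arrays each, and ethanol and carbohydrate at 6h, with 4 arrays each.

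NF-κB is held in the cytoplasm by IκB proteins until signals such as tumour necrosis factor or bacterial products lead to their breakdown. Dimers that contain p65 then enter the nucleus and bind short kB elements of inflammatory genes. Liver regeneration opens with such a signal, in which Kupffer cells release cytokines and hepatocytes and endothelial cells respond. CXCL1 attracts neutrophils through the receptor CXCR2, CCL2 attracts monocytes through CCR2, CCL5 attracts T cells and monocytes through several receptors, and CCL20 attracts lymphocytes and dendritic cells through CCR6. VCAM1 holds leukocytes that carry the integrin VLA-4, and E-selectin, the product of Sele, lets neutrophils roll along activated endothelium. All of these genes are well known NF-κB targets in cultured cells. Whole liver chromatin was used, so a change in the share of cells with p65 at a promoter and a change in p65 per cell cannot be told apart.

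RefSeq promoters of the GRCr8 assembly were matched by symbol for 4 of the 6 genes, Cxcl1, Ccl20, Vcam1 and Sele. Their 250 bases before the start are shown because they are the place where kB elements of these genes are usually described. Letters in capitals match the kB consensus of 10 letters or the looser GGNNNTTCC, read on both strands. The stretches are chr14:17479322-17479571 on the minus strand for Cxcl1, chr9:91836909-91837158 on the plus strand for Ccl20, chr2:206742784-206743033 on the minus strand for Vcam1 and chr13:78936264-78936513 on the plus strand for Sele, each written 5′ to 3′ along the gene.
Cxcl1: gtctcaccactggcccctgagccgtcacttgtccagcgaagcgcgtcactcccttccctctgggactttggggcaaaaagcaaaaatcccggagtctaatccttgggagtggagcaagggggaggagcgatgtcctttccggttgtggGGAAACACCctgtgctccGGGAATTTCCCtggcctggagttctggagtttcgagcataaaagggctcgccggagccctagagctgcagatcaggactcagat
Ccl20: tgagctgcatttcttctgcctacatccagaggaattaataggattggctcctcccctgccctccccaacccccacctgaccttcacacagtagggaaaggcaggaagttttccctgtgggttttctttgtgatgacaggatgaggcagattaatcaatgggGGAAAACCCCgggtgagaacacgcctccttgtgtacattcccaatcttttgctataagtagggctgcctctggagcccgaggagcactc
Vcam1: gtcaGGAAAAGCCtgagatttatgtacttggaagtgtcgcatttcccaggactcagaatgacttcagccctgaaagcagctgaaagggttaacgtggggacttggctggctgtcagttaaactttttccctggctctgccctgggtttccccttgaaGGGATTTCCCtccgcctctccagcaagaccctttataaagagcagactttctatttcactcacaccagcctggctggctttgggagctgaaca
Sele: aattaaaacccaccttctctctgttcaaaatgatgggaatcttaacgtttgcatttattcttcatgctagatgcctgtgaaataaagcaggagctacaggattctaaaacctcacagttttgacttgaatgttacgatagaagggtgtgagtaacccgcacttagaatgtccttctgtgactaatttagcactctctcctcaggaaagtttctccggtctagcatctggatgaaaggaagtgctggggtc
The kB consensus matched in 3 of these 4 promoters, and in 1185 of all 33469 RefSeq rat promoters of this length (3.54%). The match lay 84 to 74 bases before the start in Cxcl1, 89 to 80 in Ccl20 and 93 to 84 in Vcam1. The looser motif matched in the same 3 promoters, in each at the same place as the consensus, and in 5165 of 33469 promoters (15.43%). It matched a second time, 102 to 94 bases before the start, in Cxcl1, and again further upstream in Vcam1. Neither motif matched in these 250 bases of Sele, and bases elsewhere were not searched. Whether the RefSeq start of each gene is the start listed for the arrays was not tested. A match describes letters and not a site in use, and these coordinates are of another build than those of the arrays.

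The value for each promoter was the mean log2 ratio of the probes in 1 window of 500 bp, chosen in each tiled region for the highest mean over all 20 arrays, with each array's median at 0. The deposited ratios were multiplied by −1, since from 99.93% to 100% of the authors' peaks on each array lay below 0. The direction of the ratio was not stated, so the printed direction is a likely one, and every printed sign would turn with it. Arrays came from 4 runs and 11 slides, as told by identifiers that came with them. Run 1 held 5 of the 6 arrays of 0h and nothing else, while 11 of the 14 later arrays shared run 3. Comparisons with 0h are therefore almost one with run. When run was a term, 0 promoters rose and 5 fell at 1h against 0h in carbohydrate, against 1256 and 358 without it, and at 6h against 0h in carbohydrate 18 rose and 34 fell, against 2705 and 294 without it. None of the 6 genes passed against 0h with run as a term in either diet. Identifiers named 16 animals, 4 of them with 2 arrays.

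The windows lay at different distances from the starts. In the coordinates of the files, whose build is not given in the sources used here, the Cxcl1 window ran from 18691061 to 18691458 on chromosome 14, 660 to 1057 bp downstream of the start. That of Ccl2 was at 70255382 to 70255802 on chromosome 10, 880 to 460 bp upstream, and that of Sele at 79813351 to 79813754 on chromosome 13, from 103 bp upstream to 300 bp downstream. The other 3 lay far upstream, with Ccl5 at 71612481 to 71612976 on chromosome 10 (2646 to 2151 bp), Ccl20 at 82437284 to 82437764 on chromosome 9 (3680 to 3200 bp) and Vcam1 at 212300255 to 212300640 on chromosome 2 (3264 to 2879 bp). Each window held 5 or 6 probes. Averaged over 20 arrays, the signal was 0.39 ± 0.28 at Cxcl1 (SD, n = 20), above 93.5% of all promoters. It was 0.28 ± 0.26 at Ccl5 (percentile 69), 0.24 ± 0.20 at Vcam1 (51.9), 0.23 ± 0.18 at Sele (51.1) and 0.22 ± 0.22 at Ccl20 (43.2), with a median promoter of 0.23. Ccl2 was lowest, at 0.15 ± 0.23 (percentile 17.7). The SD of each gene over arrays was as large as the steps between neighbours in this order. By group, the percentile of Cxcl1 ran from 49.9 (ethanol at 6h) to 96.8 (ethanol at 1h). That of Ccl2 ran from 3.7 (carbohydrate at 0h) to 77.1 (ethanol at 6h).

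Across 9 comparisons of groups and 3 of the difference between diets, 8 of 72 tests of these genes passed an adjusted p of 0.05 in limma, adjusted over all 14540 promoters. Cxcl1 fell and Ccl20 rose at 6h against 1h in ethanol. Ccl5 rose at 1h against 0h in carbohydrate. Ccl2 and Sele rose at 6h against 0h in carbohydrate. Ccl20 and Vcam1 rose and Ccl5 fell at 6h against 1h in carbohydrate. No comparison of ethanol with carbohydrate passed for any of them.

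**Figure D1:**
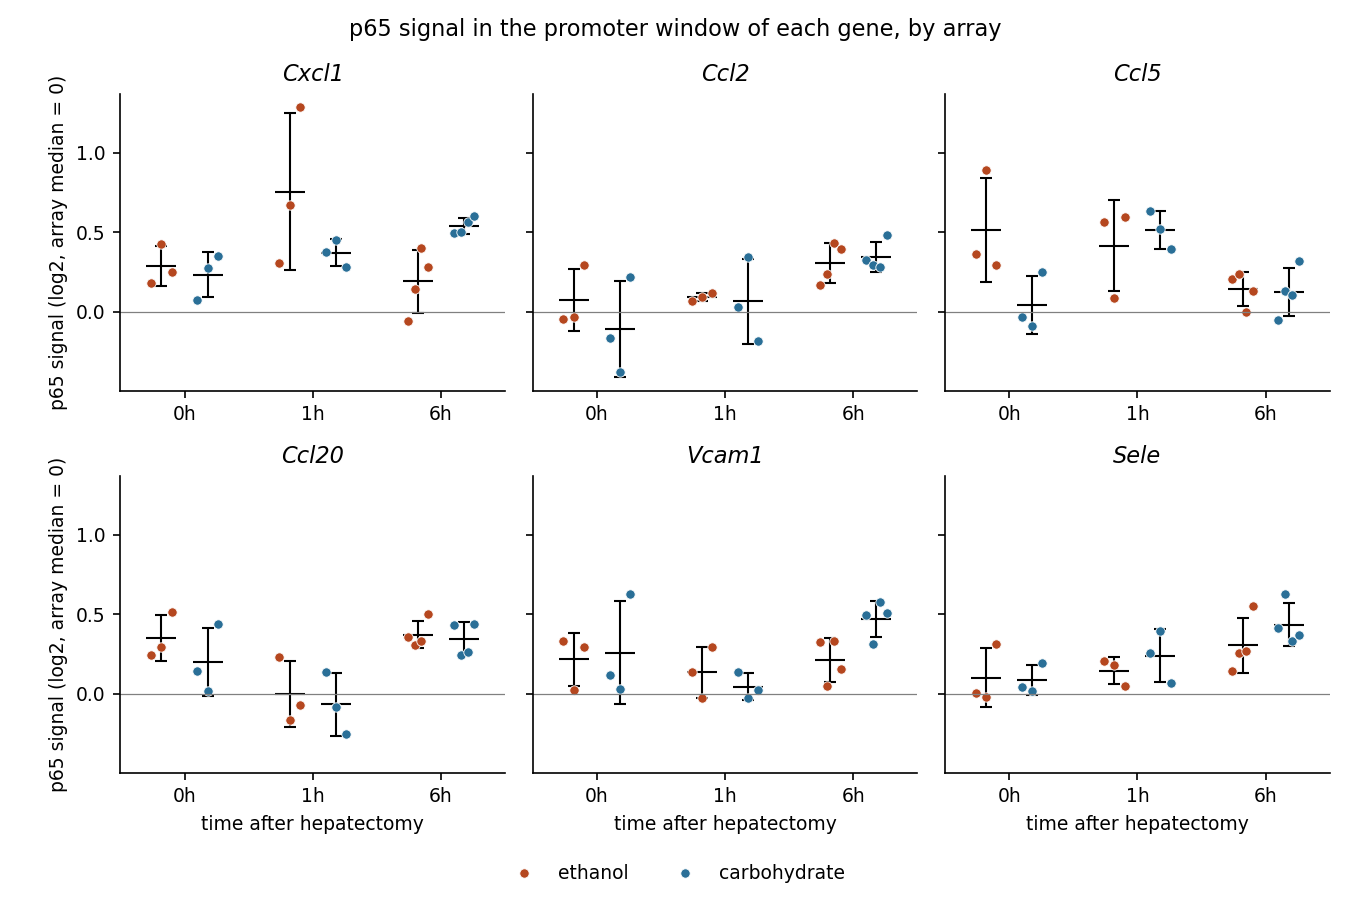
The p65 signal (log2, array median at 0) of each of the 6 promoters on all 20 arrays, ethanol left of carbohydrate at each time, with points for arrays and black bars for the mean and SD of 3 or 4 arrays. Cxcl1 in ethanol reaches 1.29 at 1h and spans −0.059 to 0.40 at 6h, while the 4 carbohydrate arrays at 6h sit between 0.49 and 0.60.

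Cxcl1 had signals of 0.18, 0.43 and 0.25 in ethanol at 0h, against 0.073, 0.27 and 0.35 in carbohydrate at 0h. At 1h they were 0.31, 0.67 and 1.29 in ethanol, against 0.38, 0.45 and 0.28 in carbohydrate. At 6h they were −0.059, 0.14, 0.40 and 0.28 in ethanol, against 0.49, 0.50, 0.56 and 0.60 in carbohydrate. The 1h ethanol arrays were the widest spread, with replicate 3 alone above 1, and the diets overlapped at 0h and 1h but not at 6h. In ethanol the promoter averaged 0.19 ± 0.20 at 6h and 0.76 ± 0.49 at 1h (SD, n = 4 and 3), a difference of −0.56 ± 0.16 (SE, limma adjusted p = 0.0136), with the 2 groups overlapping. The difference was −0.67 with run as a term (adjusted p = 0.00199) and −0.79 within run 3 alone (adjusted p = 0.00024). On the slide that held both times, ethanol 6h replicate 1 stood 1.35 below ethanol 1h replicate 3 (−1.35). Without ethanol 1h replicate 3 the difference was −0.30 (adjusted p = 0.165), and without ethanol 6h replicate 1 it was −0.48 (adjusted p = 0.0551). Set against 0h, ethanol at 1h gave 0.47 ± 0.17 (limma adjusted p = 0.176), which passed without ethanol 1h replicate 1 (0.69), over all probes within 5 kb (0.32) and with a window of 1000 bp (0.58). The fit with run as a term gave 0.11 (adjusted p = 0.998), and in the animal with arrays at both times, which shared a slide, it was −0.12.

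The signal at 1h in ethanol was spread over the Cxcl1 promoter and was not confined to the window. Over all its probes within 5 kb, the mean was 0.40 ± 0.22 in ethanol at 1h (SD, n = 3), against 0.068 ± 0.042 in carbohydrate at 1h. Of 10 bins of 500 bp with at least 3 probes, 6 fell at 6h against 1h in ethanol, in a fit of all bins on the array that was added after the data were seen. The largest of these 6 differences was −0.73 ± 0.14 (limma adjusted p = 0.00342), in the bin from 1000 to 500 bp upstream. Only 1 probe lay in the 250 bases before the listed start, where the RefSeq letters hold the kB match, and it read −0.052 ± 0.40 in ethanol at 1h (SD, n = 3).

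The authors' lists held Cxcl1 peaks on 11 of 20 arrays, and 91.9% of all listed genes had a peak on as many arrays or fewer. Peak scores and false discovery rates (FDR) are the authors' own, per peak. In ethanol at 1h all 3 arrays had a peak, 6 in all, from 2082 bp upstream to 730 bp downstream, and the highest score was 1.26 with an FDR of 0. In carbohydrate at 1h, 1 of 3 arrays had a peak, with a highest score of 0.436. Peak centres differed between times in these lists. At 0h they were centred 1474 to 1325 bp upstream, on 1 of 3 ethanol and 2 of 3 carbohydrate arrays, and at 6h they were centred 680 to 830 bp downstream, on 1 of 4 ethanol and 3 of 4 carbohydrate arrays.

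Ccl2 had group means between −0.11 and 0.090 before 6h. At 0h its signals were −0.045, −0.033 and 0.30 in ethanol, against −0.17, −0.38 and 0.22 in carbohydrate, and at 1h they were 0.064, 0.092 and 0.11 in ethanol, against 0.029, 0.35 and −0.18 in carbohydrate. At 6h they were 0.17, 0.24, 0.43 and 0.39 in ethanol, against 0.32, 0.29, 0.28 and 0.48 in carbohydrate. All 8 arrays of 6h were above 0, and in carbohydrate the 4 of 6h lay above the 3 of 0h. Windows were chosen for a high mean over these arrays, and a median promoter averaged 0.23, so values above 0 are common. The carbohydrate mean was 0.34 ± 0.093 at 6h and −0.11 ± 0.30 at 0h (SD, n = 4 and 3), a rise of 0.45 ± 0.13 (SE, limma adjusted p = 0.0153). With run as a term the difference was 0.57 and did not pass (adjusted p = 0.285), nor did it over all probes within 5 kb (0.17, adjusted p = 0.13). It did not pass without carbohydrate 0h replicate 1 (0.43, adjusted p = 0.0744), without carbohydrate 0h replicate 2 (0.32, adjusted p = 0.179) or without carbohydrate 6h replicate 4 (0.41, adjusted p = 0.0507). In ethanol the same difference was 0.24 ± 0.13 (limma adjusted p = 0.306), and the difference between diets was −0.22 ± 0.18 (limma adjusted p = 0.57). Set against 1h in carbohydrate, 6h gave 0.28 ± 0.13 (limma adjusted p = 0.116), which passed without carbohydrate 1h replicate 2 (0.42).

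In the authors' lists Ccl2 had peaks at 6h alone, on 2 of 4 ethanol and 3 of 4 carbohydrate arrays, and on none of the 12 earlier arrays. These peaks were centred 1597 to 495 bp upstream, with scores of 0.387 to 0.564. Of the 11 bins, 1 rose at 6h against 0h in carbohydrate, 2000 to 1500 bp upstream (0.64 ± 0.16, limma adjusted p = 0.0255), and with run as a term it was 0.55 (adjusted p = 0.351). Its 4 carbohydrate 6h arrays ranged from 0.14 to 1.11, so that their spread was wide. In the 250 bases before the start, 2 probes averaged −0.14 ± 0.21 in ethanol and 0.18 ± 0.15 in carbohydrate at 6h (SD, n = 4 each). In carbohydrate they averaged −0.16 ± 0.098 at 0h and 0.26 ± 0.097 at 1h (SD, n = 3 each). In ethanol they averaged −0.013 ± 0.010 at 0h and −0.12 ± 0.049 at 1h (SD, n = 3 each).

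Ccl5 had another order of times. At 0h its signals were 0.36, 0.89 and 0.29 in ethanol, against −0.033, −0.093 and 0.25 in carbohydrate. At 1h they were 0.57, 0.086 and 0.60 in ethanol, against 0.63, 0.52 and 0.39 in carbohydrate, and at 6h they were 0.21, 0.24, −0.0010 and 0.13 in ethanol, against −0.05, 0.13, 0.10 and 0.32 in carbohydrate. The 2 diets were apart at 0h, with every ethanol array above every carbohydrate array, and overlapped at 1h and 6h. In carbohydrate the signal rose by 0.47 ± 0.16 at 1h against 0h (limma adjusted p = 0.0459), with means of 0.52 ± 0.12 at 1h and 0.041 ± 0.18 at 0h (SD, n = 3 each). It fell by 0.39 ± 0.15 at 6h against 1h (−0.39, limma adjusted p = 0.0498), to 0.13 ± 0.15 (SD, n = 4). In both comparisons the groups did not overlap.

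Both Ccl5 calls sat at the edge of the threshold. With run as a term the difference of 1h against 0h was 0.047 (adjusted p = 1) and that of 6h against 1h was −0.26 (adjusted p = 0.172), and within run 3 alone the second was −0.27 (adjusted p = 0.142). The second was also lost with slide as a random block (−0.35, adjusted p = 0.0674), with arrays scaled to equal median absolute deviation (−0.32, adjusted p = 0.066), with a window of 1000 bp (−0.27, adjusted p = 0.0757) and over all probes within 5 kb (−0.088, adjusted p = 0.197). Slide as a random block ended the first as well (0.45, adjusted p = 0.0631). The one animal with arrays at both 1h and 0h in carbohydrate differed by 0.73. For 1h against 0h the call was lost without carbohydrate 0h replicate 1 (0.44, adjusted p = 0.127) or 2 (0.41, adjusted p = 0.154), and without carbohydrate 1h replicate 1 (0.41, adjusted p = 0.133) or 2 (0.47, adjusted p = 0.118). For 6h against 1h it was lost without carbohydrate 1h replicate 1 (−0.33, adjusted p = 0.173), 2 (−0.39, adjusted p = 0.0972) or 3 (−0.45, adjusted p = 0.0605), and without carbohydrate 6h replicate 1 (−0.33, adjusted p = 0.138), 2 (−0.39, adjusted p = 0.0819) or 3 (−0.38, adjusted p = 0.0951). In ethanol, 6h against 1h gave −0.27 ± 0.15 (limma adjusted p = 0.166), which passed only without ethanol 1h replicate 2 (−0.44).

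The lists held Ccl5 peaks on 11 of 20 arrays, at 3 of 3 ethanol and 0 of 3 carbohydrate arrays at 0h. At 1h there were peaks on 2 of 3 ethanol and 3 of 3 carbohydrate arrays, and at 6h on 1 of 4 ethanol and 2 of 4 carbohydrate arrays. All 3 peaks of 6h were 4013 to 3722 bp upstream and outside the window, while at 0h they were 3558 to 2412 bp upstream. Scores ranged from 0.334 to 0.775, and the lowest FDR was 0.0389. In the fit by bins, 2 of 10 rose at 1h against 0h in carbohydrate, of which the bin from 2500 to 2000 bp upstream rose by 0.50 ± 0.15 (limma adjusted p = 0.0386). Neither of the 2 passed with run as a term (−0.053 and 0.15, adjusted p = 1 for both).

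Ccl20 was low at 1h in both diets. At 0h its signals were 0.25, 0.29 and 0.51 in ethanol, against 0.14, 0.018 and 0.44 in carbohydrate. At 1h they were 0.23, −0.17 and −0.071 in ethanol, against 0.14, −0.084 and −0.25 in carbohydrate. At 6h they were 0.35, 0.31, 0.33 and 0.50 in ethanol, against 0.43, 0.24, 0.26 and 0.44 in carbohydrate. Every array of 6h was above every array of 1h in the same diet. Against 1h, the signal rose at 6h by 0.37 ± 0.13 in ethanol (SE, limma adjusted p = 0.0305) and by 0.41 ± 0.13 in carbohydrate (adjusted p = 0.0182), and the difference between diets was −0.036 ± 0.18 (adjusted p = 0.941).

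Run did not take these Ccl20 calls away. With run as a term the rise was 0.48 in ethanol (adjusted p = 0.00244) and 0.49 in carbohydrate (adjusted p = 0.00552), and within run 3 alone it was 0.49 in ethanol (adjusted p = 0.00119) and 0.48 in carbohydrate (adjusted p = 0.00347). In ethanol the call was lost without 1h replicate 2 (0.29, adjusted p = 0.139) or 3 (0.34, adjusted p = 0.106), and without 6h replicate 1 (0.38, adjusted p = 0.0516) or 4 (0.33, adjusted p = 0.0752). In carbohydrate it was lost without 1h replicate 2 (0.40, adjusted p = 0.0501) or 3 (0.32, adjusted p = 0.117) and without 6h replicate 4 (0.38, adjusted p = 0.0516). Between 1h and 0h the difference was −0.35 ± 0.13 in ethanol (limma adjusted p = 0.188), with no overlap, and −0.27 ± 0.13 in carbohydrate (adjusted p = 0.188). The ethanol one passed without ethanol 1h replicate 1 (−0.47), and it also passed over all probes within 5 kb (−0.23), as did the carbohydrate one (−0.20). Once run was a term they were −0.074 in ethanol (adjusted p = 0.998) and 0.039 in carbohydrate (adjusted p = 1), and within the animal that had both times on 1 slide the ethanol one was −0.060.

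Ccl20 had no peak on any of the 6 arrays of 1h. At 0h it had peaks on 1 of 3 ethanol and 2 of 3 carbohydrate arrays, and at 6h on 3 of 4 ethanol and 1 of 4 carbohydrate arrays. The peaks fell in a far group, 3611 to 3240 bp upstream, and a near group, 977 to 688 bp upstream. The highest score was 0.614, and the lowest FDR was 0.0134. The rise at 6h against 1h was broad in ethanol, where 6 of 11 bins rose, the largest by 0.56 ± 0.14 at 3500 to 3000 bp upstream (limma adjusted p = 0.0112). In carbohydrate 2 of 11 bins rose, and both had risen in ethanol too. In the 250 bases before the start, which hold the kB letters in RefSeq, 2 probes averaged −0.14 ± 0.11 in ethanol and 0.10 ± 0.22 in carbohydrate at 6h (SD, n = 4 each). At 1h they averaged −0.091 ± 0.10 in ethanol and 0.016 ± 0.11 in carbohydrate (SD, n = 3 each).

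**Figure D2:**
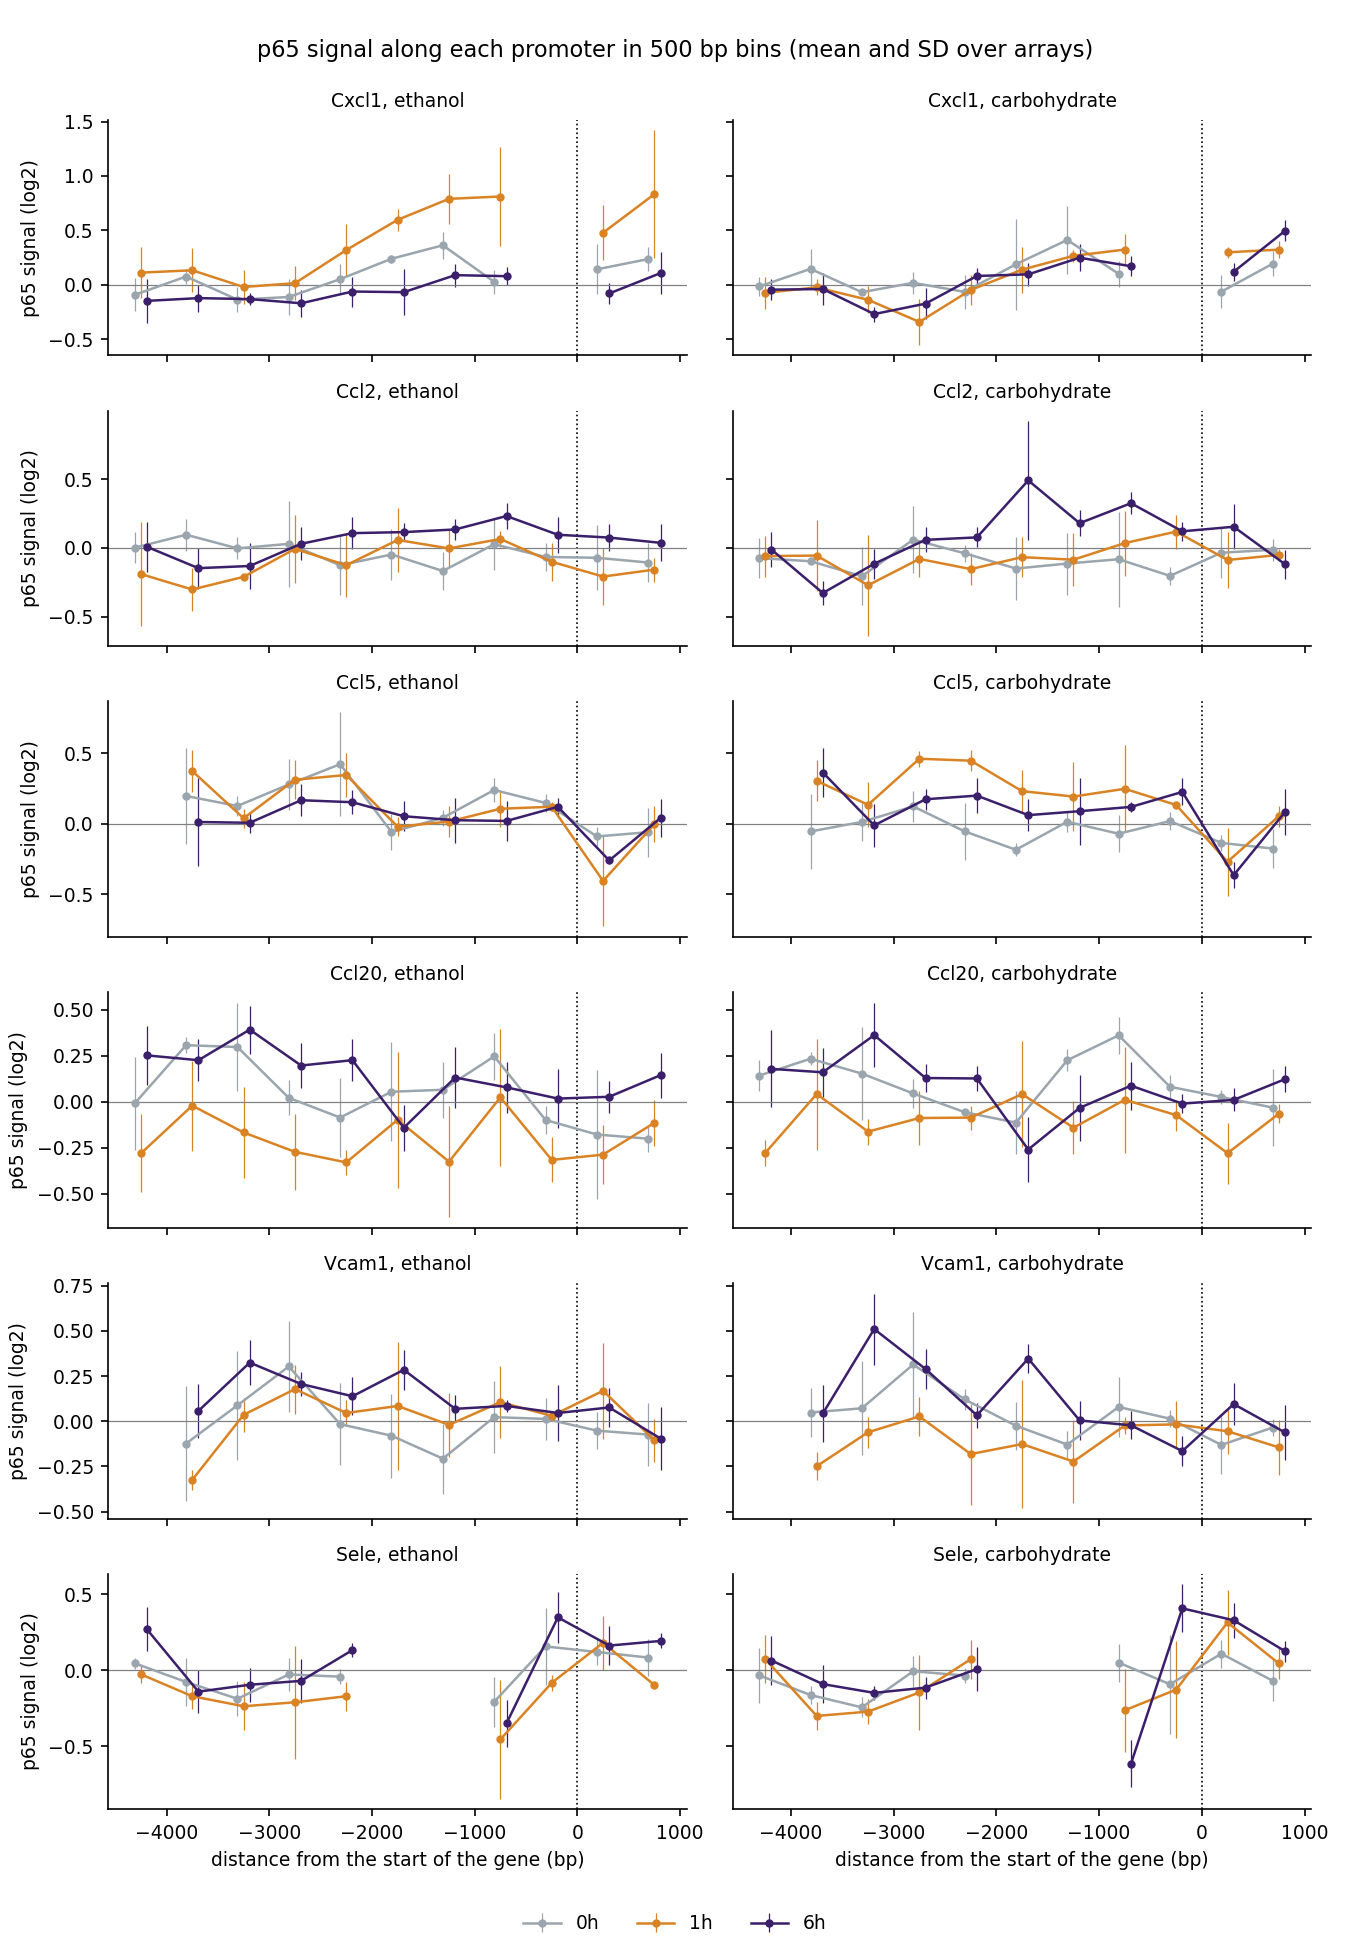
The p65 signal (log2, mean and SD over 3 or 4 arrays) in 500 bp bins along each promoter, against distance from the start in bp, with ethanol left and carbohydrate right and a colour for each time. Bins with under 3 probes are left blank. Cxcl1 in ethanol stands out at 1h, with 0.81 from 1000 to 500 bp upstream, against 0.32 in carbohydrate.

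Of the adhesion molecules, Vcam1 had its highest group mean in carbohydrate at 6h. At 0h its signals were 0.33, 0.024 and 0.29 in ethanol, against 0.12, 0.028 and 0.63 in carbohydrate, and at 1h they were 0.14, −0.025 and 0.29 in ethanol, against 0.14, −0.027 and 0.021 in carbohydrate. At 6h they were 0.33, 0.047, 0.33 and 0.15 in ethanol, against 0.49, 0.31, 0.58 and 0.50 in carbohydrate. The 4 carbohydrate arrays of 6h lay above the 3 of 1h, while 1 array of 0h was higher still. In carbohydrate the signal rose by 0.43 ± 0.13 at 6h against 1h (SE, limma adjusted p = 0.0194), with means of 0.47 ± 0.11 at 6h and 0.044 ± 0.085 at 1h (SD, n = 4 and 3). The rise was 0.44 with run as a term (adjusted p = 0.0217) and 0.47 within run 3 alone (adjusted p = 0.00832).

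The Vcam1 call was lost without carbohydrate 1h replicate 2 (0.39, adjusted p = 0.0677) or 3 (0.42, adjusted p = 0.0603) and without carbohydrate 6h replicate 3 (0.39, adjusted p = 0.0538). In ethanol the same difference was 0.080 ± 0.13 (adjusted p = 0.683), and the difference between diets was −0.35 ± 0.19 (limma adjusted p = 0.399). Against 0h in carbohydrate, 6h gave 0.21 ± 0.13 (adjusted p = 0.25), and without carbohydrate 0h replicate 3 it gave 0.40 and passed. It was 0.57 with run as a term (adjusted p = 0.291). That array had the highest value of its group at each of the 6 genes.

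Peaks at Vcam1 were listed on 11 of 20 arrays, and on every carbohydrate array of 6h. At 0h 2 of 3 ethanol and 1 of 3 carbohydrate arrays had one, at 1h 1 of 3 ethanol and 0 of 3 carbohydrate, and at 6h 3 of 4 ethanol and 4 of 4 carbohydrate. All lay 3348 to 1471 bp upstream. Their FDR was between 0.0421 and 0.19653, and 1 of the 12 peaks had an FDR of at most 0.05. Of the 10 bins, 2 rose at 6h against 1h in carbohydrate, by 0.57 ± 0.14 at 3500 to 3000 bp upstream (limma adjusted p = 0.00988) and by 0.47 ± 0.15 at 2000 to 1500 bp upstream (adjusted p = 0.0356), of which the second was 0.28 with run as a term (adjusted p = 0.145). In ethanol 1 bin rose, 4000 to 3500 bp upstream (0.38 ± 0.12, adjusted p = 0.0429). The 250 bases before the start, with the kB letters in RefSeq, held 3 probes that averaged 0.11 ± 0.12 in ethanol and −0.11 ± 0.094 in carbohydrate at 6h (SD, n = 4 each). At 1h they averaged 0.055 ± 0.047 in ethanol and 0.097 ± 0.13 in carbohydrate (SD, n = 3 each). In carbohydrate they were thus lower at 6h than at 1h, unlike the window.

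Sele, whose RefSeq promoter held no match, had its window at the start itself and all its peaks within 332 bp of it. At 0h its signals were 0.0045, −0.019 and 0.31 in ethanol, against 0.045, 0.018 and 0.20 in carbohydrate, and at 1h they were 0.20, 0.18 and 0.048 in ethanol, against 0.26, 0.39 and 0.066 in carbohydrate. At 6h they were 0.14, 0.25, 0.27 and 0.55 in ethanol, against 0.41, 0.63, 0.33 and 0.37 in carbohydrate. All 8 arrays of 6h were above 0, which is common in windows chosen for a high mean. The carbohydrate arrays of 6h did not overlap those of 0h. In carbohydrate the signal rose by 0.35 ± 0.12 at 6h against 0h (SE, limma adjusted p = 0.042), with means of 0.43 ± 0.13 at 6h and 0.086 ± 0.096 at 0h (SD, n = 4 and 3). In ethanol the difference was 0.20 ± 0.12 (adjusted p = 0.349), and the difference between diets was −0.14 ± 0.17 (limma adjusted p = 0.701).

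This rise depended on most arrays and on the fit. It was 0.59 with run as a term (adjusted p = 0.249), and over all probes within 5 kb it was 0.078 (adjusted p = 0.342). It was lost without carbohydrate 0h replicate 1 (0.33, adjusted p = 0.139) or 2 (0.31, adjusted p = 0.179), and without carbohydrate 6h replicate 1 (0.36, adjusted p = 0.0577), 2 (0.28, adjusted p = 0.126), 3 (0.38, adjusted p = 0.0504) or 4 (0.37, adjusted p = 0.063). Along the promoter, 1 bin fell in the same comparison, 1000 to 500 bp upstream (−0.66 ± 0.16, limma adjusted p = 0.0195), and with run as a term it was 0.22 (adjusted p = 0.779). Against 1h in carbohydrate, the bin just before the start rose at 6h by 0.53 ± 0.15 (limma adjusted p = 0.0211), and in ethanol 2 other bins of the 9 rose.

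Sele peaks were listed at 0h on 1 of 3 ethanol and 0 of 3 carbohydrate arrays, at 1h on 0 of 3 ethanol and 1 of 3 carbohydrate arrays, and at 6h on 2 of 4 ethanol and 3 of 4 carbohydrate arrays. The peaks of 6h were centred 159 to 19 bp upstream of the start, with scores of 0.350 to 0.716 and a lowest FDR of 0.00427. In the 250 bases before the start, 2 probes averaged 0.15 ± 0.39 in ethanol and −0.062 ± 0.46 in carbohydrate at 0h, and −0.031 ± 0.13 in ethanol and −0.19 ± 0.35 in carbohydrate at 1h (SD, n = 3 each). At 6h they averaged 0.42 ± 0.15 in ethanol and 0.58 ± 0.18 in carbohydrate (SD, n = 4 each).

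**Figure D3:**
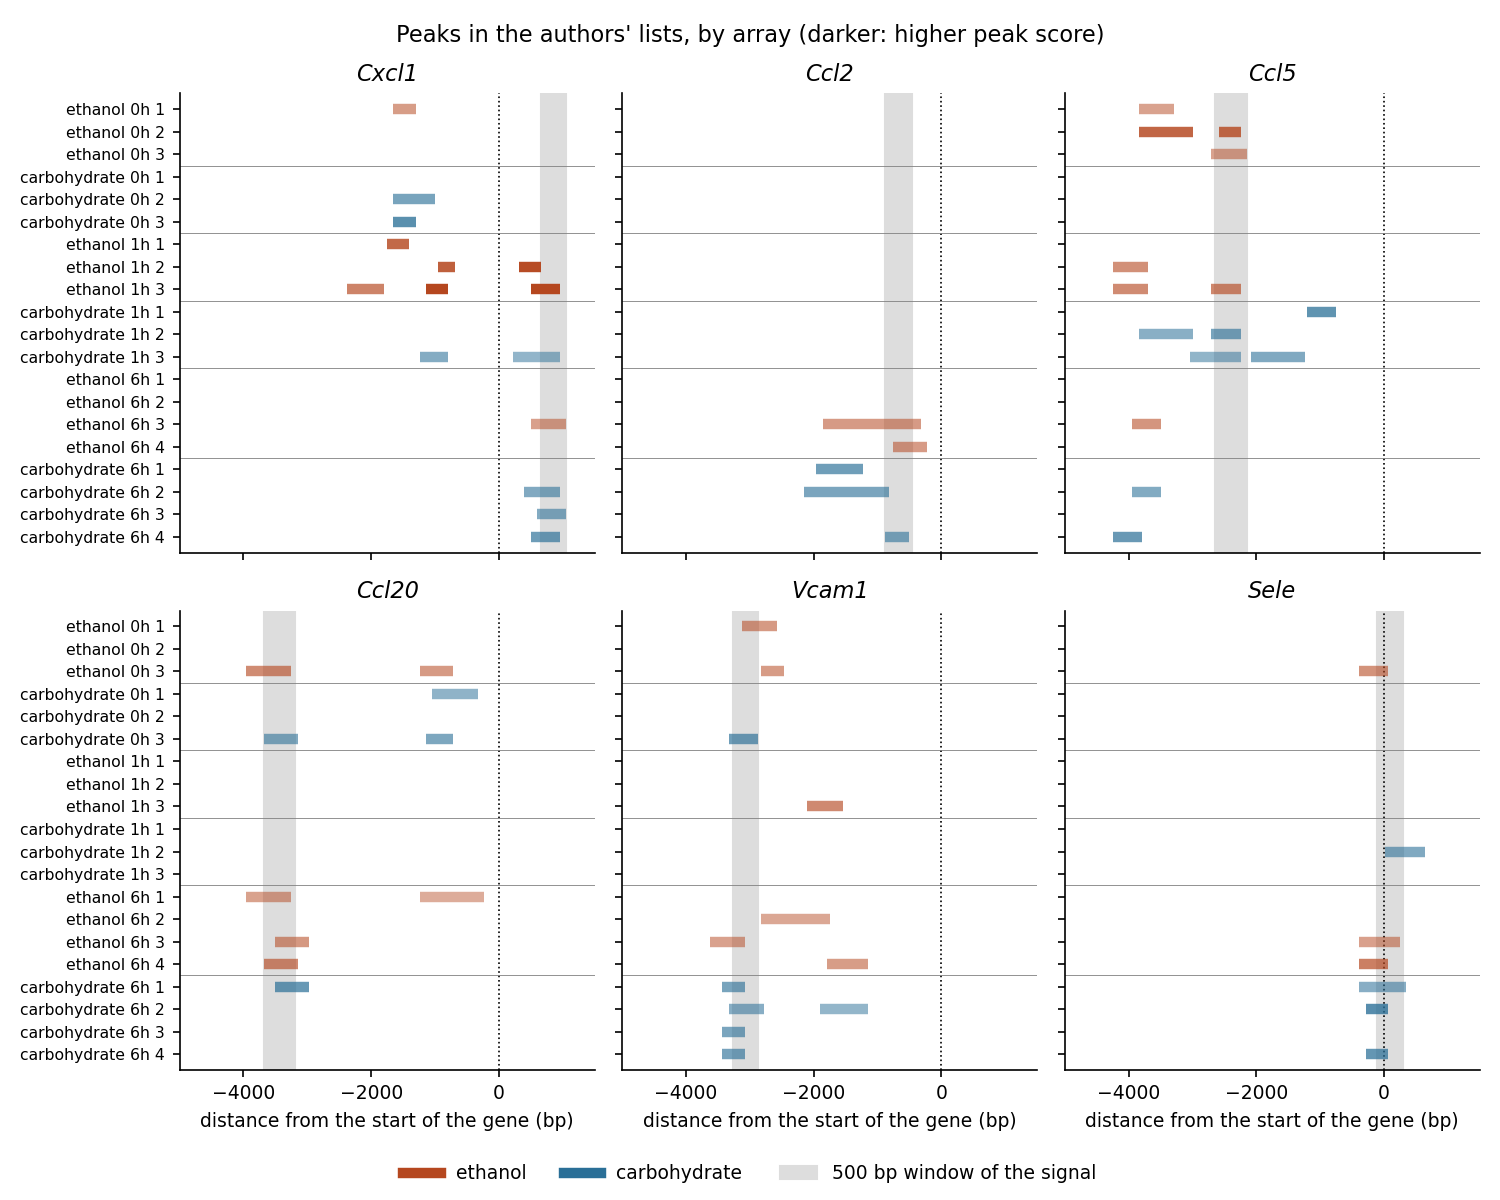
Peaks at the 6 genes in the authors' lists, 1 row for each of the 20 arrays and darker for a higher peak score, against distance from the start in bp, with ethanol above carbohydrate at each time and the 500 bp window shaded. Ccl2 has peaks in the 6h rows alone, and Ccl20 has none in the 6 rows of 1h.

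The question of whether the ethanol diet changed p65 at these promoters was asked at each time. Without run as a term, none of the 6 passed at 0h, at 1h or at 6h, and neither did any other promoter (0% of 14540 promoters at 0h, 0% at 1h and 0% at 6h by limma). With run as a term, 41 of 14540 promoters were higher and 6 lower in ethanol at 1h, and 0 passed at 0h or at 6h. None of the 6 genes was among those that passed at 1h. At an unadjusted p under 0.05 in the fit without run there were 1106 promoters at 0h, 1189 at 1h and 1590 at 6h, among them 4 of the 18 tests of these genes. Ccl5 at 0h was higher in ethanol by 0.47 ± 0.16 (limma unadjusted p = 0.00483, adjusted p = 0.622), and by 0.29 with run as a term (adjusted p = 0.998). Cxcl1 was higher in ethanol at 1h by 0.38 ± 0.17 (unadjusted p = 0.035, limma adjusted p = 0.571) and lower at 6h by 0.35 (−0.35 ± 0.15, unadjusted p = 0.0276, adjusted p = 0.44). Within run 3 alone the Cxcl1 differences were 0.61 at 1h (adjusted p = 0.0561) and −0.36 at 6h (adjusted p = 0.117). On the 3 slides that held both diets at 1h, Cxcl1 in ethanol less carbohydrate was −0.068, 0.22 and 1.00. Vcam1 at 6h gave −0.26 ± 0.12 (unadjusted p = 0.044, adjusted p = 0.453). The other 14 differences between diets lay between −0.13 and 0.18, with SEs of 0.11 to 0.17. With array weights, Cxcl1 (−0.43) and Vcam1 (−0.27) passed for ethanol against carbohydrate at 6h. How many of all promoters passed with array weights is not reported here.

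The change over time was also compared between diets. Without run as a term, 0% of promoters passed for 1h against 0h, 0% for 6h against 0h and 0% for 6h against 1h. With run as a term, 11 of 14540 promoters were higher and 213 lower for 6h against 1h. In that fit 0 were higher and 2 lower for 1h against 0h, and 0 passed for 6h against 0h. None of the 6 genes was among those that passed. For Cxcl1 the change at 6h against 1h was −0.56 in ethanol and 0.17 in carbohydrate, a difference of −0.73 ± 0.23 (limma unadjusted p = 0.00334, adjusted p = 0.23). Within run 3 alone this difference was −0.98 and passed (adjusted p = 0.00756), as it did without ethanol 1h replicate 1 (−0.96) and with array weights (−0.83). With run as a term it was −0.75 (adjusted p = 0.0608). For Ccl5 the change at 1h against 0h was −0.099 in ethanol and 0.47 in carbohydrate, a difference of −0.57 ± 0.22 (unadjusted p = 0.0142, limma adjusted p = 0.455). For Vcam1 the difference between diets in 6h against 0h passed with array weights (−0.44). These comparisons share arrays, since each group of 1h enters 2 of the changes.

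**Figure D4:**
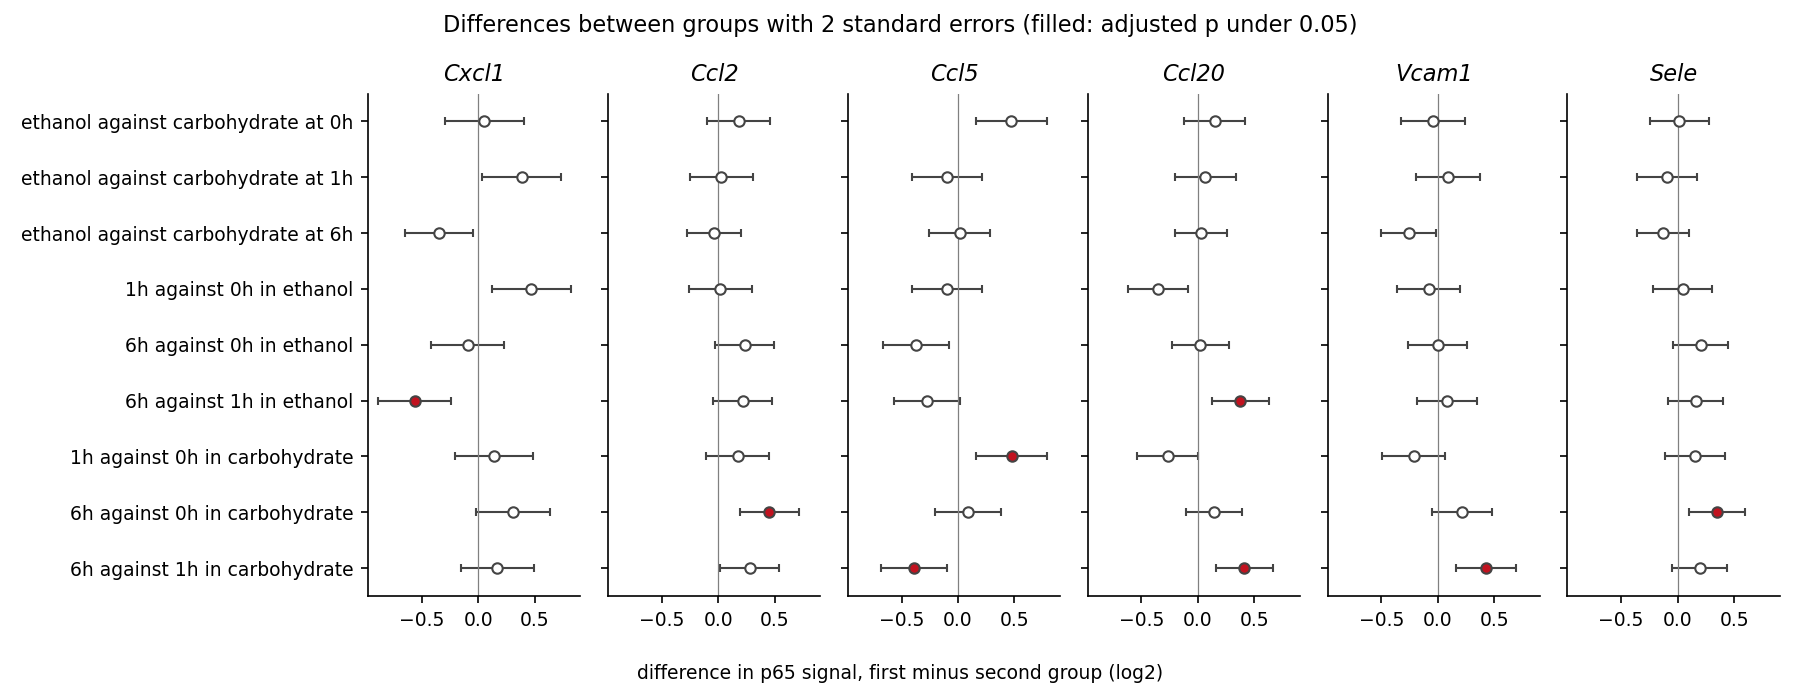
Differences in p65 signal (log2, first minus second group) for the 6 genes in 9 comparisons of groups, with bars of 2 standard errors and filled points where the limma adjusted p was under 0.05. The filled points are the 8 that passed, and none is in the upper 3 rows, which set ethanol against carbohydrate.

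The counts for these genes were read against those of all promoters. In ethanol at 6h against 1h 2 of 6 passed, against 23.8% of all promoters, 1 of them higher (7.73% of all) and 1 lower (16.1% of all). In carbohydrate 3 of 6 passed at 6h against 1h, against 24.1%, with 2 higher (17.1%) and 1 lower (6.91%). At 6h against 0h in carbohydrate 2 of 6 passed, against 20.6%, both higher (18.6%). Between 1h and 0h in carbohydrate 1 of 6 passed, against 11.1%, and it was higher (8.64%). Between 1h and 0h in ethanol none passed, against 0.275%, and at 6h against 0h in ethanol none passed, against 0.997%. At an unadjusted p under 0.05 there were 2 of 6 and 1 of 6 in these last 2 comparisons, beside 2363 and 3021 of all 14540 promoters. The median difference of the 6 genes was 0.26 at 6h against 0h in carbohydrate, beside 0.15 over all promoters, and 0.24 at 6h against 1h in carbohydrate, beside 0.067. In ethanol it was 0.12 at 6h against 1h, beside −0.078 over all promoters. Each gene moves a share of 6 by a large step, and no test set these shares or medians against those of the whole array.

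The authors' peak lists were counted by group. With a peak on at least 2 arrays of a group counted as bound, 2 of the 6 genes were bound in ethanol at 0h (19.8% of 14356 listed genes) and 2 in carbohydrate at 0h (20.6%). At 1h 2 were bound in ethanol (41.6%) and 1 in carbohydrate (28.8%). At 6h 4 were bound in ethanol (30.2%) and 5 in carbohydrate (39.6%). These counts of 6 were set beside the shares of all listed genes with no test, and they lay above them at 6h and at 0h and below them at 1h. The 4 of ethanol at 6h were Ccl2, Ccl20, Vcam1 and Sele, and the 5 of carbohydrate were Cxcl1, Ccl2, Ccl5, Vcam1 and Sele. The number of listed peaks per array ran from 2874 to 9387, and how far it moves these counts was not tested. A median listed gene had peaks on 6 of 20 arrays, and Ccl2 had peaks on 5, Ccl20 and Sele on 7.

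By 500 bp bins, 61 bins of the 6 promoters had at least 3 probes. Between 6h and 1h in ethanol 15 passed, 9 higher and 6 lower, where 13.1% of all bins passed. In carbohydrate 6 passed between 6h and 1h, all higher, where 14.8% of all bins passed. Among these bins, that of Ccl2 (0.28, adjusted p = 0.128) and 1 of Vcam1 in carbohydrate did not pass with run as a term, nor did 1 of Sele in ethanol (0.25, adjusted p = 0.0519). Between 1h and 0h in carbohydrate 2 passed (8.41% of all bins), and at 6h against 0h in carbohydrate 2 passed (5.31%), 1 of them higher and 1 lower. All 6 lower bins at 6h against 1h in ethanol belonged to Cxcl1, and 6 of the 9 higher ones to Ccl20. Neighbouring bins share sheared fragments and are not independent.

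Over the 20 arrays, Ccl2, Ccl20, Vcam1 and Sele were all positively correlated with each other, with Pearson's r from 0.278 for Vcam1 and Sele to 0.773 for Ccl2 and Sele. Ccl5 had negative r with these 4, from −0.268 to −0.088. Cxcl1 had r from −0.318 with Ccl20 to 0.242 with Ccl5. These are descriptions over 20 arrays that share runs and slides. By the same measure, the promoters most like Cxcl1 were those of Ankle2 (r = 0.914), Tor3a and Rpl21, those most like Ccl5 were Blmh (0.905), Ptk2b and Ptpn23, and those most like Vcam1 were Nsmce1 (0.913), Elavl2 and Slc7a13. Olfactory receptor genes stood among the 3 most like for Ccl2 (Or51v8b, 0.921, and Or51v14, beside Trim55). They did so too for Ccl20 (Or8b44, 0.932, and Or5b106, beside Itgb1bp2) and Sele (Or5g27 and Or2v1, beside Slc26a3, 0.845). These were picked as the highest of all named promoters, so a high r is what the choice gives.

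Other genes of the same pathways were counted with the same fit. Of 28 promoters of other chemokine ligands, 6 rose and 0 fell at 6h against 0h in carbohydrate, a share near the 18.6% of all promoters that rose, led by Ccl7 (0.49, limma adjusted p = 0.00405), a ligand of CCR2 like CCL2, and Ccl6 (0.48, adjusted p = 0.0345). Against 1h, 3 rose (17.1% of all promoters) and 2 fell (6.91%) at 6h in carbohydrate, led by Cxcl6 (0.54), a neutrophil chemokine, and Ccl17 (−0.42), while 1 rose (Ccl7, 0.30, 7.73% of all promoters) and 4 fell (16.1%) in ethanol. Only Ccl17 rose at 1h against 0h in carbohydrate (0.44), where 8.64% of all promoters rose. The median of the 28 was 0.21 at 6h against 0h in carbohydrate, beside 0.15 over all promoters, 0.12 beside 0.067 at 6h against 1h in carbohydrate, and −0.032 beside −0.078 at 6h against 1h in ethanol. Of 20 promoters of chemokine receptors, 5 rose at 6h against 0h in carbohydrate (18.6% of all promoters), led by Cxcr6 (0.61), the receptor of CXCL16. Against 0h in carbohydrate, 2 rose at 1h (8.64% of all promoters), among them Ccr6 (0.46), the receptor of CCL20. Against 1h in carbohydrate, 4 receptor promoters rose (17.1% of all promoters) and 2 fell (6.91%) at 6h, led by Ccr3 (0.63) and Ackr2 (−0.55). In ethanol 2 fell (16.1%), Cx3cr1 (−0.36) and Cxcr5 (−0.32). The receptor median was 0.26 at 6h against 0h in carbohydrate, beside 0.15 over all promoters, 0.063 beside 0.067 at 6h against 1h in carbohydrate and −0.039 beside −0.078 at 6h against 1h in ethanol.

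Of 20 promoters of other leukocyte adhesion molecules, their ligands and integrins, 3 rose at 6h against 0h in carbohydrate (18.6% of all promoters), led by the vascular sialomucin Cd34 (0.92, limma adjusted p = 0.00197). Against 1h in carbohydrate 2 rose (17.1% of all promoters) and 4 fell (6.91%) at 6h, led by Cd34 (0.81) and Icam2 (−0.67). In ethanol 1 rose, Glycam1 (0.50, 7.73% of all promoters), and 2 fell (16.1% of all promoters). Both Itgal (0.67) and Icam2 (0.65) rose at 1h against 0h in carbohydrate, where 8.64% of all promoters rose, and no other of the 20 passed there. The median of the 20 was 0.15 at 6h against 0h in carbohydrate, beside 0.15 over all promoters, 0.057 beside 0.067 at 6h against 1h in carbohydrate and −0.11 beside −0.078 at 6h against 1h in ethanol. Markers of liver cell types were counted as well, although p65 at their promoters measures neither RNA nor cell number. In ethanol 4 of 7 hepatocyte markers fell at 6h against 1h, led by Alb (−0.81), where 16.1% of all promoters fell, while 0 of 4 markers of sinusoidal endothelium and 0 of 6 of Kupffer cells passed. In carbohydrate at 6h against 0h, 2 of 7 hepatocyte, 1 of 4 endothelial and 3 of 6 Kupffer cell markers rose, where 18.6% of all promoters did, and at 1h against 0h 2, 1 and 2 of them, where 8.64% did. Against 1h in carbohydrate, 1 hepatocyte marker rose and 2 fell at 6h, 1 endothelial marker fell, and 1 Kupffer cell marker rose and 1 fell. There 17.1% of all promoters rose and 6.91% fell. Without run as a term, none of the lists had a member that passed between diets. Run as a term was a fit of these lists added after the data were seen. In it, none of their promoters passed at 6h against 0h or at 1h against 0h in carbohydrate. At 6h against 1h in ethanol, 4 of 7 hepatocyte markers fell as before. There 3107 of 14540 promoters fell and 1560 rose. Of the other lists, 5 of 28 chemokine ligands, 4 of 20 receptors and 3 of 20 adhesion promoters fell, and 0, 0 and 2 rose. In carbohydrate at 6h against 1h, 1 hepatocyte and 1 endothelial marker fell and 1 Kupffer cell marker rose. Of all promoters 730 fell and 2396 rose in that comparison. For the difference between diets in 6h against 1h, that fit had 1 of 28 other chemokine ligands and 1 of 7 hepatocyte markers lower. Of all 14540 promoters, 213 were lower there.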

How the data were processed

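p65 binding was read on 20 promoter tiling arrays, 1 per sample. Groups and replicate numbers came from the sample titles, since the source field gives the same time and replicate for all samples of a diet. The authors deposited 1 log2 ratio per probe for 713735 probes, of p65 precipitate (Cy5) over a reference (Cy3) that the channel labels call input and the labelling text IgG. Centring and direction of the ratio, the peak caller and the genome build are not given in the sources used here. Per the file headers, the authors' peak lists, 1 per array, hold a peak score and an FDR, a p-value type measure, up to 0.19961. Peak score and deposited value correlated over peaks at r from −0.821 to −0.623.

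Ratios were multiplied by −1 and centred on each array's median (medians as deposited −0.0249 to 0.0170). Probes were joined into 14723 regions at gaps of over 1000 bp, and 14540 had a window of 500 bp with at least 4 probes. Names came from the peak lists and RefSeq (13678 of 14678 accessions matched). Promoters were tested two-sided with limma 3.58.1 in R 4.3.3 (lmFit, eBayes with trend) with 1 mean per group in a single model, adjusted over all promoters by Benjamini-Hochberg at a threshold of 0.05, and the script was tested on simulated data. Bins of 500 bp used the same fit. SDs are over arrays, and the number of arrays limits the precision. The replicates are called biological in the labels, which name no animals, so p-values reflect the scatter among these arrays, part of which may be technical. Identifiers that came with the arrays named 16 animals, 4 of them with 2 arrays. The limma fit treated all arrays as independent, and animal as a random block was an alternative. The 6 genes and the lists were chosen with earlier results of these data known. All 6 are named with every value. Of the lists, at most the 2 largest rises and 2 largest falls among those that passed were named, and a few of these are not reported here. Of alike promoters, the 3 with the highest r were named. Alternatives were other windows, scalings, blocks, weights and left-out arrays. Python 3.11.15 and matplotlib 3.10.9 were used.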

Additional observations from a re-analysis of the deposited data

How the results depend on the processing

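Of 93 values of the 8 passing differences under settings other than leaving out 1 array, 69 kept direction and call, 19 kept direction and lost the call, and 5 turned. All 5 turned with the deposited direction and windows chosen anew, which measures other probes: Cxcl1 (0.11) and Ccl20 (−0.27) at 6h against 1h in ethanol, Ccl2 at 6h against 0h in carbohydrate (−0.031), and Ccl5 (0.095) and Vcam1 (−0.0044) at 6h against 1h in carbohydrate. There 0 genes passed in those comparisons, nor at 1h against 0h in carbohydrate (0). Of 55 values without 1 array, 24 kept the call and 31 lost it.

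Beyond the counts given above for run as a term, how many of all promoters passed under the settings below is not reported here. The counts of these genes can therefore not be set against the whole array. The number of the 6 genes that passed moved as follows, and the cause was not tested. At 6h against 0h in carbohydrate (2 in the report) it was 0 over all probes within 5 kb and with array run as a term, 1 with scaling to equal median absolute deviation, quantile normalization or slide as a random block, and 4 with array weights. At 1h against 0h in carbohydrate (1) it was 0 with run as a term or slide as a block, and 2 over 5 kb or with array weights. At 1h against 0h in ethanol (0) it was 2 over 5 kb and 1 with a 1000 bp window or array weights. With array weights it was 2 for ethanol against carbohydrate at 6h, 1 for the difference between diets in 6h against 0h and 1 for that in 6h against 1h, which was also 1 within run 3 alone. In ethanol at 6h against 1h (2) it was 3 over 5 kb, where Sele was added (0.19), and in carbohydrate at 6h against 1h (3) it was 2, without Ccl5, over 5 kb, with a 1000 bp window, with equal median absolute deviation, with run as a term, within run 3 alone and with slide as a block. Without 1 array at a time the number ranged from 0 to 2 at 1h against 0h in ethanol, from 0 to 2 at 6h against 1h in ethanol, from 0 to 1 at 1h against 0h in carbohydrate, from 0 to 3 at 6h against 0h in carbohydrate, from 0 to 2 at 6h against 1h in carbohydrate and from 0 to 1 for the difference between diets in 6h against 1h. Of 52 pairs of a gene and an array with a listed peak, 16 had an FDR of at most 0.05 and 21 a peak within 1 kb of the start.

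Equal replicate numbers did not pair the arrays: over 46 pairs of arrays of other groups with the same number, residuals correlated at a mean r of 0.067 (−0.22 to 0.50), against −0.026 for other numbers. With the replicate block, 1 gene and not 2 passed at 6h against 0h in carbohydrate (Sele 0.32, limma adjusted p = 0.0831), and the number was the same in the other comparisons. The consensus correlation was 0.191 within slides and 0.0722 within animals. Ratios alone were deposited, so signal over background could not be read.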
